A study of Mus musculus with 52 samples.

Results

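The account below covers dimethylation of histone H3 at lysine 4 (H3K4me2) in mouse embryonic fibroblasts (MEFs), measured by ChIP-seq in FC/FC cells, which lack part of the MLL2 gene, and in F/F cells, which carry it. The 6 libraries were chosen by antibody and genotype, and are 6 of the 52 samples of the study. FC/FC cells (libraries NGS-6282, NGS-6290 and NGS-6298) are MEFs with loxP sites in both Mll2 (Kmt2d) alleles that were exposed to tamoxifen for 24 h, which excises exons 3 to 5 and brings a stop codon into frame. F/F cells (libraries NGS-6278, NGS-6286 and NGS-6294) carry the same floxed alleles and had no tamoxifen. Treatment and genotype therefore go together, and they cannot be told apart. Both groups derive from an immortalized line, and the methods describe the 3 libraries of each group as independent experiments. No label pairs an FC/FC library with an F/F library. The antibody of library NGS-6282 carries the catalogue number ab8895, against ab32356 for the other 5, and ab8895 is the number given for the H3K4me1 antibody. Results are therefore given with and without library NGS-6282.

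MLL2, encoded by Kmt2d, is a methyltransferase of H3K4 that works in a large complex with shared subunits such as ASH2L and with subunits of its own. H3K4me2 lies between H3K4me1, which spreads over enhancers and gene flanks, and H3K4me3, which sits in a narrow zone over active promoters. It marks both promoters and enhancers, and in fibroblasts it covers the matrix and cytoskeleton genes that such cells express. Promoters rich in CpG dinucleotides tend to carry H3K4 methylation in most cell types, whereas promoters poor in CpG carry it in the tissues that use them.

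The authors deposited RPKM, which are reads per kilobase of transcript (with 500 bp added at each end) scaled to the reads within transcripts of the library. A change of the mark by the same factor at every gene cannot be seen on that scale, and the values were not divided by those of total H3. The reads behind each table were recovered as whole numbers for 100% of values at a tolerance of 0.01, and totalled 31514831 to 49990775 reads in FC/FC libraries and 36376215 to 48504887 reads in F/F libraries. Across 23043 genes, library NGS-6282 correlated with the remaining H3K4me2 libraries at a Spearman rho of 0.990 to 0.992, and with those of H3K4me1 at 0.822 to 0.857. For the other 5 H3K4me2 libraries these ranges were 0.990 to 0.995 and 0.816 to 0.879. Of 16 fibroblast marker genes 13 passed the filter on level. S100a4 led them at 24.2 to 25.3 RPKM in FC/FC cells and 24.2 to 25.1 RPKM in F/F cells. No member was at 0, as in the epithelial, haematopoietic, endothelial and neural lists. The summed RPKM of the fibroblast markers was 78.9 to 83.4 in FC/FC libraries and 77.8 to 79.4 in F/F libraries.

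The level at Kmt2d itself was read first. Over the whole gene (chr15:98831669-98871205, mm10, minus strand) it was 2.89, 2.82 and 2.69 RPKM in FC/FC libraries NGS-6282, NGS-6290 and NGS-6298, and 2.55, 2.46 and 2.49 RPKM in F/F libraries NGS-6278, NGS-6286 and NGS-6294. The FC/FC libraries were all above the F/F libraries, by 0.16 on the log2 scale (SE 0.04), but this difference was not past the threshold (limma, adjusted p = 0.090, and 0.050 without library NGS-6282, which is just above the threshold). A value over the whole gene cannot show the loss of 3 exons, so it does not check the labels.

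With all 6 libraries, 63.2% of the genes called lower had promoters with fewer than 10 CpG, among them S100b, Ly6f and Igfbp6. Without library NGS-6282 the share was 33.8%. Far from promoters 1362 regions were lost and 54 gained, but 382 and 367 with an equal number of peaks in each library. Promoter sequences of these 3 genes and of 1 higher gene are printed here. The counts of CpG described later can be read from them. Each promoter runs 250 bases before to 50 bases after the TSS of the transcript measured, was read from the mm10 genome, and is written 5′ to 3′ on the strand of the gene, with each CG in capitals. The promoter of Ly6f (chr15:75268171-75268470, plus strand) has 0 CpG, that of S100b (chr10:76253586-76253885, plus strand) has 3, and that of Igfbp6 (chr15:102143936-102144235, plus strand) has 8. The promoter of Htr1b (chr9:81632503-81632802, minus strand), a gene higher in FC/FC cells, has 21 CpG.
Ly6f promoter: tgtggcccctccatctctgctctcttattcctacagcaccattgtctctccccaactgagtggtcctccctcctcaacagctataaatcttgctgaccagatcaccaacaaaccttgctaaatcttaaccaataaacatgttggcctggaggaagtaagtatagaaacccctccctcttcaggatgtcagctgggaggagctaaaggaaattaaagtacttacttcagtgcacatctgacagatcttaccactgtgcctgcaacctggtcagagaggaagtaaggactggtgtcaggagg
S100b promoter: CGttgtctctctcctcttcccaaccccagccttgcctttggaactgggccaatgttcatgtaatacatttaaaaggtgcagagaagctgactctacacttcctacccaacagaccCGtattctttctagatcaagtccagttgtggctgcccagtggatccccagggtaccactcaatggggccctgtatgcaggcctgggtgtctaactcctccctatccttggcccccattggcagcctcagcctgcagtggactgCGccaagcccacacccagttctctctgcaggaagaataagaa
Igfbp6 promoter: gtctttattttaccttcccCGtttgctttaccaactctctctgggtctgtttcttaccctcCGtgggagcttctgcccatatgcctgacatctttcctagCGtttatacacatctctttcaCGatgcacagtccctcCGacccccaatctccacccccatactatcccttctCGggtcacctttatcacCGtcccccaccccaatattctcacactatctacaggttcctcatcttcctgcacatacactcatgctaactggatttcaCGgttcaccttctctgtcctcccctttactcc
Htr1b promoter: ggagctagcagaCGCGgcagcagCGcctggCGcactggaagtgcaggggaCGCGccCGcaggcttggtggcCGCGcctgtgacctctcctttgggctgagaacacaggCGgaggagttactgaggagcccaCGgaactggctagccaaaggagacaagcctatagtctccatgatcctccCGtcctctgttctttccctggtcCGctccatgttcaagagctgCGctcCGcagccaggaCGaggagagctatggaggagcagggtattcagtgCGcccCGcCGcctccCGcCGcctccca

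The 9986 genes that exceeded 1 RPKM in 3 or more libraries were tested with limma on log2(RPKM + 0.1), where the change of a low gene reads smaller than it is. At an adjusted p under 0.05, 155 genes (1.55% of those tested) had lower H3K4me2 in FC/FC cells and 59 genes (0.591%) had higher H3K4me2, which makes 214 in all (2.14%). The changes were modest. The 155 lower genes fell by 0.21 to 1.06 on the log2 scale, and 37 of them by more than 0.5, whereas the 59 higher genes rose by 0.21 to 0.59 and 2 of them by more than 0.5. The median over all 9986 genes was 0.07, so most genes read slightly higher in FC/FC cells. With libraries centred on their medians the split was 28 higher and 406 lower, and with quantile normalization 28 higher and 319 lower. At an unadjusted p under 0.05 there were 2900 genes. The FC/FC libraries were all below the F/F libraries at 842 of the 9986 genes (8.43%) and all above them at 2719 (27.2%). Among these were all 155 lower and all 59 higher genes, so a lack of overlap at a called gene adds nothing to its call.

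The number of calls depended on single libraries. Without library NGS-6282, 847 genes (8.48%) were lower and 2105 (21.1%) higher, 2952 in all (29.6%), and all 214 genes were among them. Without 1 of the other libraries the calls fell to 6 lower genes (without NGS-6290), 18 (without NGS-6298), 5 (without NGS-6278), 11 (without NGS-6286) and 0 (without NGS-6294), with 0 higher in each case, although 1607 to 2273 genes had an unadjusted p under 0.05. At the 847 genes called lower without library NGS-6282, the median difference from F/F was -0.25 in libraries NGS-6290 and NGS-6298 and -0.13 in library NGS-6282. At the 2105 genes called higher it was 0.21 in libraries NGS-6290 and NGS-6298 and 0.06 in library NGS-6282. Over all genes these medians were 0.055 and 0.08. Library NGS-6282 had no part in choosing these genes, but both differences use the same F/F libraries. The genes were chosen for a large difference in NGS-6290 and NGS-6298. A library left out of the choice can show a smaller one for that reason alone. Beside its own median over all genes (0.08), library NGS-6282 was lower at the 847 genes. At the 2105 genes it was not higher than that median (0.06, quartiles -0.0081 and 0.13). The cause was not tested.

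**Figure D1:**
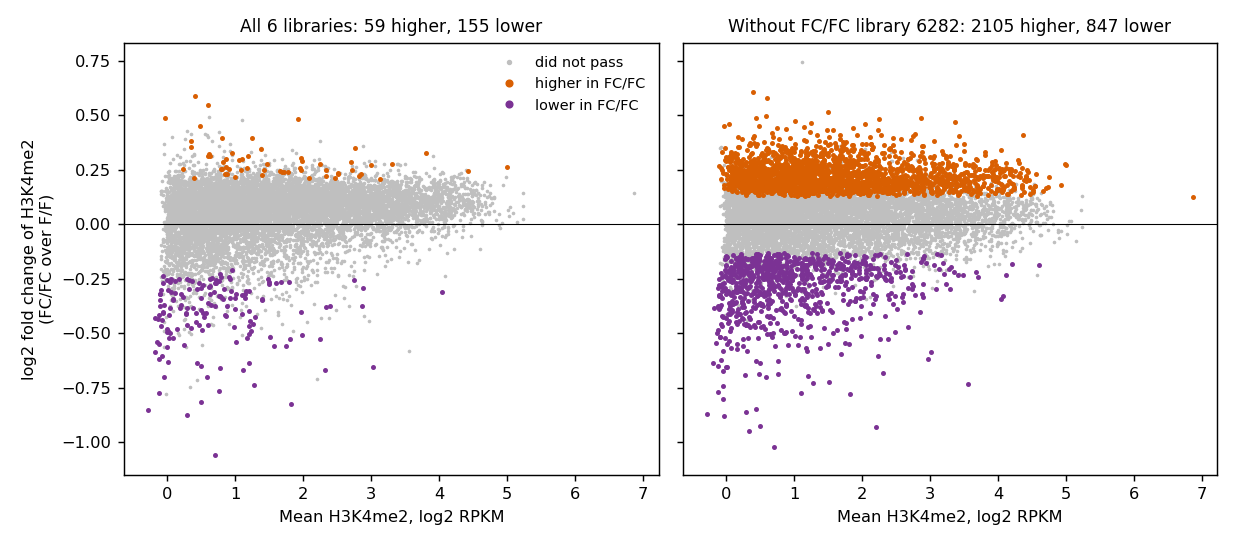
The log2 fold change of H3K4me2 (FC/FC over F/F, y axis) against the mean level in log2 RPKM (x axis), with 1 point per gene for 9986 genes, from all 6 libraries (left) and without FC/FC library NGS-6282 (right). Genes that passed the test are orange where higher and purple where lower in FC/FC cells; 59 and 155 passed with all libraries, and 2105 and 847 without library NGS-6282.

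S100b and Ifitm6 had the largest falls. S100b, a calcium-binding protein best known from glia (chr10:76253836-76261319), had 0.808, 0.889 and 0.794 RPKM in FC/FC libraries NGS-6282, NGS-6290 and NGS-6298, and 1.84, 1.58 and 1.42 RPKM in F/F libraries NGS-6278, NGS-6286 and NGS-6294. The 2 sets of libraries were far apart, with a log2 fold change of -0.88 (SE 0.09, limma, adjusted p = 0.016, and 0.0047 without library NGS-6282). Leaving out any other single library moved its adjusted p to 0.053 to 0.074 (limma). Ifitm6, of a family of interferon-induced transmembrane proteins, had the largest change of any called gene. Its RPKM were 0.945, 0.961 and 1.11 in FC/FC libraries and 1.64, 2.24 and 2.89 in F/F libraries, with a log2 fold change of -1.06 (SE 0.18, limma, adjusted p = 0.041). The F/F libraries spread widely at this gene, and its adjusted p was 0.013 without library NGS-6282 and 0.059 to 0.18 without another library (limma).

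Crabp2, Igfbp6 and Nupr1 were also lower. Crabp2 (chr3:87948693-87953372), which carries retinoic acid to the nucleus, had 3.90, 3.84 and 3.72 RPKM in FC/FC libraries and 5.97, 6.06 and 6.37 RPKM in F/F libraries. The FC/FC libraries lay close together and far below the F/F libraries, with a log2 fold change of -0.67 (SE 0.05, limma, adjusted p = 0.0032, and 0.0013 without library NGS-6282). It passed without each library in turn except NGS-6294, where the adjusted p was 0.052 (limma). Igfbp6 (chr15:102144186-102149512), which binds insulin-like growth factor II, had 1.09, 1.27 and 1.33 RPKM in FC/FC libraries and 2.02, 2.30 and 2.17 RPKM in F/F libraries. Here library NGS-6282 was the lowest of the FC/FC libraries, and the log2 fold change was -0.77 (SE 0.08, limma, adjusted p = 0.016, 0.0026 without library NGS-6282 and 0.047 to 0.097 without another). Nupr1, a small chromatin protein induced by stress, had 5.65, 6.63 and 6.51 RPKM in FC/FC libraries and 8.65, 10.4 and 10.8 RPKM in F/F libraries. Its log2 fold change was -0.66 (SE 0.10, limma, adjusted p = 0.033, 0.0090 without library NGS-6282 and 0.064 to 0.18 without another).

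Krtap2-4, Mrgprf, Aqp5 and Sfta2 were among the other large falls. Krtap2-4, a keratin-associated protein of hair, had 0.572, 0.547 and 0.552 RPKM in FC/FC libraries and 1.08, 1.12 and 1.06 RPKM in F/F libraries (log2 fold change -0.85, limma, adjusted p = 0.0026). It belongs to a multigene family, so reads may be shared with close copies. It passed without each library in turn except NGS-6294, where its adjusted p was 0.051 (limma). Mrgprf, an orphan receptor of the Mas-related family, had 1.17, 0.949 and 0.880 RPKM in FC/FC libraries and 1.83, 1.69 and 1.97 RPKM in F/F libraries (-0.82, limma, adjusted p = 0.023). At this gene library NGS-6282 was the FC/FC library nearest to F/F cells, and without it the adjusted p was 0.0013 (limma), against 0.054 to 0.15 without another library. Aqp5, a water channel of gland and lung epithelium, had 1.24, 1.24 and 1.42 RPKM in FC/FC libraries and 2.03, 1.97 and 2.34 RPKM in F/F libraries (-0.66, limma, adjusted p = 0.023). Sfta2, a surfactant-associated protein of lung, had 1.77, 1.73 and 1.89 RPKM in FC/FC libraries and 3.06, 3.02 and 3.11 RPKM in F/F libraries (-0.74, limma, adjusted p = 0.0032). The rest of the 14 largest falls were at Ly6f, described below, and at Gm8580 (-0.77), Klhl30 (-0.70), the amine oxidase Aoc2 (-0.70) and the matrix protein Tinagl1 (-0.67). All 14 passed without library NGS-6282. Without 1 of the other 5 libraries, Sfta2 passed in 4 cases, Aqp5 in 1 and Mrgprf in 0. All 14 were chosen among genes whose groups do not overlap.

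The largest rises were at Pcdh20, Htr1b, Lrrtm1 and Rgs4. Pcdh20, a protocadherin of cell adhesion, had 1.56, 1.51 and 1.74 RPKM in FC/FC libraries NGS-6282, NGS-6290 and NGS-6298, and 0.967, 0.969 and 1.18 RPKM in F/F libraries NGS-6278, NGS-6286 and NGS-6294. The groups did not overlap (log2 fold change 0.59, SE 0.09, limma, adjusted p = 0.033, 0.0092 without library NGS-6282 and 0.073 to 0.15 without another). Htr1b, the serotonin receptor 1B, had 1.72, 1.89 and 1.83 RPKM in FC/FC libraries and 1.26, 1.27 and 1.11 RPKM in F/F libraries. All FC/FC libraries were above all F/F libraries, with a log2 fold change of 0.55 (SE 0.06, limma, adjusted p = 0.021, 0.0045 without library NGS-6282 and 0.054 to 0.11 without another). Lrrtm1, a synaptic adhesion protein, had 1.22, 1.08 and 1.16 RPKM in FC/FC libraries and 0.817, 0.776 and 0.797 RPKM in F/F libraries (0.48, limma, adjusted p = 0.019). Rgs4, which shortens signals of G protein-coupled receptors, had 4.89, 3.99 and 4.40 RPKM in FC/FC libraries and 3.28, 2.87 and 3.25 RPKM in F/F libraries (0.48, limma, adjusted p = 0.042).

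Rgs4 was also 1 of the genes with higher mRNA in FC/FC cells on the microarrays of the study. Of that list 4 members were tested and only Rgs4 passed, beside 0.591% higher over all genes. The other large rises were at the noncoding RNA Kis2 (0.45), the p53-induced gene Trp53inp1 (0.40), the homeobox gene Hoxc13 (0.39), Aard (0.38), AI606473 (0.35) and Tmem261 (0.35). Trp53inp1 had 2.45, 2.91 and 2.76 RPKM in FC/FC libraries and 2.02, 2.06 and 2.01 RPKM in F/F libraries. The FC/FC libraries of this gene varied more than the F/F libraries, with NGS-6282 the lowest (limma, adjusted p = 0.037, and 0.0035 without library NGS-6282). Each of these 10 higher genes passed without library NGS-6282, and none passed without any other single library. With limma-voom on the recovered reads, Htr1b, Lrrtm1, Kis2, Aard, AI606473 and Tmem261 did not pass (limma-voom, adjusted p = 0.053 to 0.078).

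**Figure D2:**
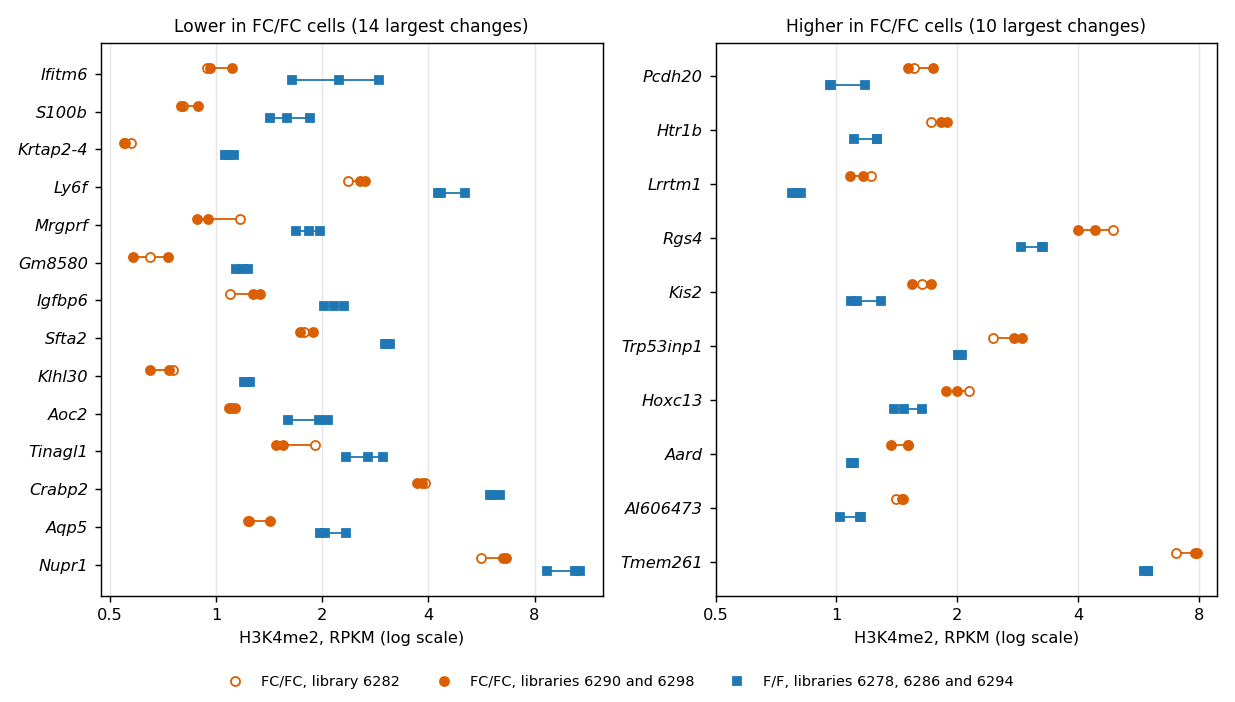
H3K4me2 in RPKM (x axis, log scale) at the 14 genes with the largest falls (left) and the 10 with the largest rises (right) among called genes whose groups do not overlap. Orange circles are FC/FC libraries (open circle, library NGS-6282), blue squares are F/F libraries, and lines join the libraries of a group; at Crabp2 the FC/FC libraries sit at 3.72 to 3.90 RPKM and the F/F libraries at 5.97 to 6.37 RPKM.

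The genes of the Ly6 family, small cell-surface proteins anchored by lipid that mark stem cells and blood cells, lie in a cluster on chromosome 15. Of 29 family members with a value 7 were tested, and 3 were lower, 0 higher and 4 did not pass, beside 1.55% lower over all genes. The median log2 fold change of the 7 was -0.31, against 0.07 over all genes tested, and -0.41 after quantile normalization. All 7 values were below 0, also after centring, beside 2498 of all 9986 genes, and 4186 after centring. Without library NGS-6282, 4 were lower, beside 8.48% of all genes. Reads at these similar genes may be shared between copies, which makes their separate levels uncertain.

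Ly6f (chr15:75268421-75272234) had 2.36, 2.65 and 2.56 RPKM in FC/FC libraries and 5.07, 4.25 and 4.36 RPKM in F/F libraries. The groups were well apart, with a log2 fold change of -0.83 (SE 0.08, limma, adjusted p = 0.011, 0.0035 without library NGS-6282 and 0.039 to 0.073 without another). Ly6a, which encodes the stem cell antigen Sca-1, had 15.4, 14.3 and 14.3 RPKM in FC/FC libraries and 17.9, 17.9 and 18.8 RPKM in F/F libraries. The fall of Ly6a was smaller (-0.31, SE 0.05, limma, adjusted p = 0.034, 0.0055 without library NGS-6282 and 0.11 to 0.18 without another). Ly6c1, a marker of monocytes and endothelium, had 4.29, 3.72 and 3.54 RPKM in FC/FC libraries and 5.55, 4.997 and 6.25 RPKM in F/F libraries. Library NGS-6282 was the FC/FC library nearest to F/F cells at Ly6c1 (-0.53, SE 0.10, limma, adjusted p = 0.048, 0.0080 without library NGS-6282 and 0.078 to 0.21 without another).

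Peaks in and beside this cluster were also seen more often in F/F libraries. This cluster was looked at after the values were seen. Peaks were called by the authors with MACS in each library, with H3 ChIP of the corresponding cells as the control, and were merged here over the 6 libraries into regions. Regions with a peak in all 3 F/F libraries and in no FC/FC library were counted as lost, and those with the opposite pattern as gained. Over 377.4 kb, from Ly6a to beyond Ly6f, there were 18 regions away from promoters. Of these 16 had a peak in more F/F than FC/FC libraries, 1 in more FC/FC than F/F libraries and 1 in as many of each. Lost regions numbered 4 and gained regions 0, beside 2.52% and 0.0999% of all distal regions. Distal peaks were also more numerous in F/F libraries over the whole genome (42480 to 49566, against 37581 to 38969 in FC/FC libraries). The share of all distal regions with a peak in more F/F than FC/FC libraries was not counted. The strongest of the 4 (chr15:75215471-75217178), 51243 bp from the nearest TSS, had no peak in any FC/FC library, and MACS scores of 503, 67.1 and 282 in F/F libraries NGS-6278, NGS-6286 and NGS-6294. The MACS score is a scaled negative log10 of the p-value of each peak, starts at 50 in these lists, and cannot be compared between libraries of different depth.

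**Figure D3:**
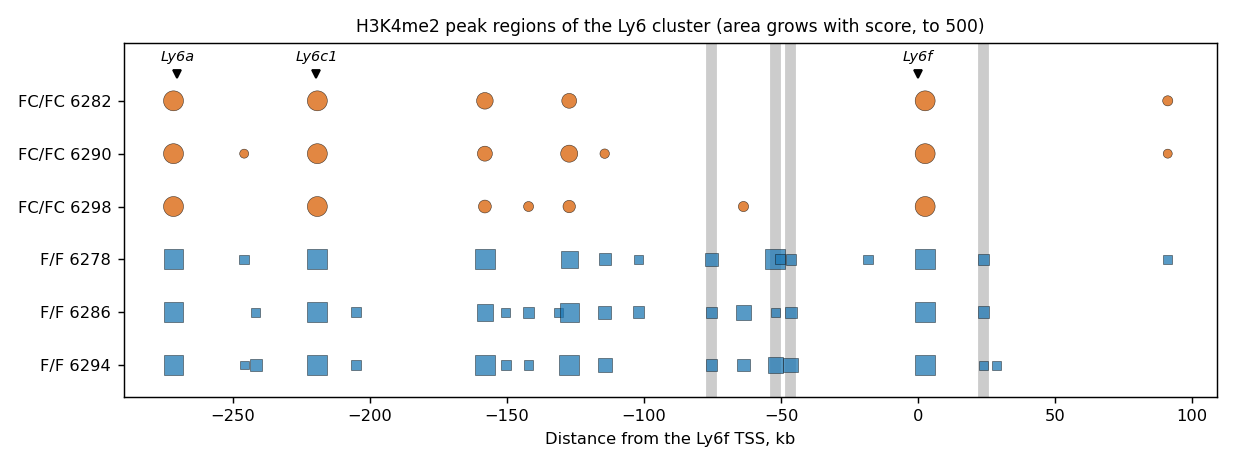
Peak regions of H3K4me2 in the Ly6 cluster by distance from the Ly6f TSS in kb (x axis), with 1 line per library (y axis; orange circles FC/FC, blue squares F/F). Symbol area grows with the MACS score up to 500, grey bands mark the 4 lost regions, and triangles mark the TSSs of Ly6a, Ly6c1 and Ly6f; the 3 FC/FC lines have no symbol in the grey bands.

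Genes that act on the matrix were also among the lower ones. Of 31 tested proteases and inhibitors of the matrix, 3 were lower and 0 higher, with a median of -0.05, beside 1.55% lower and 0.591% higher over all genes. Htra3, a serine protease, had 0.735, 0.671 and 0.636 RPKM in FC/FC libraries and 1.04, 1.00 and 1.18 RPKM in F/F libraries (-0.59, limma, adjusted p = 0.023). Its relative Htra1 had 1.403, 1.20 and 1.18 RPKM in FC/FC libraries and 1.77, 1.64 and 1.71 RPKM in F/F libraries (-0.41, limma, adjusted p = 0.041). The gelatinase Mmp2 had 1.66, 1.75 and 1.82 RPKM in FC/FC libraries and 2.21, 2.19 and 2.28 RPKM in F/F libraries (-0.34, limma, adjusted p = 0.030). At none of these 3 genes did the groups overlap, which was so at all 155 lower genes. All 3 passed without library NGS-6282, where 9 members of the list were lower and 2 higher (8.48% and 21.1% of all genes), and none of them passed without another library.

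Of 14 tested collagens none passed, and the median was -0.01, with 7 values below 0 and 7 above. Without library NGS-6282, 4 were lower and 2 higher. Over all genes tested, 8.48% were lower and 21.1% higher without that library, and 1.55% and 0.591% with all libraries. These shares stand beside each list of this paragraph. Col4a2, of basement membranes, had 1.42, 1.35 and 1.34 RPKM in FC/FC libraries and 1.62, 1.59 and 1.598 RPKM in F/F libraries (-0.21, limma, adjusted p = 0.055, and 0.012 without library NGS-6282). Of 33 matrix glycoproteins, 11 integrins and 16 targets of YAP none passed. Without library NGS-6282, 6 glycoproteins, 3 integrins and 1 YAP target were lower, and 2 glycoproteins, 1 integrin and 1 YAP target were higher. Of 14 tested genes of the insulin-like growth factor axis Igfbp6 alone passed, and without library NGS-6282 there were 3 lower and 0 higher. Of 15 tested retinoid genes Crabp2 alone passed, with a median of 0.02 over the 15, and without library NGS-6282 there were 2 lower and 0 higher.

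Of 11 tested cadherins and protocadherins 3 were lower (Cdh1, Cdh3 and Pcdh12) and 1 higher (Pcdh20), beside 1.55% and 0.591% of all genes. Without library NGS-6282, 3 were lower and 4 higher, beside 8.48% and 21.1%. Cdh1, the E-cadherin of epithelia, had 0.895, 0.766 and 0.795 RPKM in FC/FC libraries and 1.25, 1.10 and 1.22 RPKM in F/F libraries. The groups did not overlap at this low level (-0.49, SE 0.07, limma, adjusted p = 0.033, 0.0046 without library NGS-6282 and 0.062 to 0.18 without another). Its neighbor Cdh3, the P-cadherin, had 2.01, 1.86 and 1.81 RPKM in FC/FC libraries and 2.43, 2.37 and 2.39 RPKM in F/F libraries (-0.33, limma, adjusted p = 0.034). Pcdh12 had 1.25, 1.10 and 1.07 RPKM in FC/FC libraries and 1.66, 1.49 and 1.49 RPKM in F/F libraries (-0.41, limma, adjusted p = 0.041). Krt7, a keratin of simple epithelia, fell by 0.44 on the log2 scale, with 0.836, 0.751 and 0.691 RPKM in FC/FC libraries and 1.10, 1.04 and 1.04 RPKM in F/F libraries (limma, adjusted p = 0.035). Of 14 epithelial marker genes 4 were tested and Cdh1 alone passed, and 2 were lower without library NGS-6282. The summed RPKM of the 14 was 9.03 to 12.01 in FC/FC libraries and 10.5 to 12.3 in F/F libraries, and none was at 0. Cdh3, Pcdh12 and Krt7 passed without library NGS-6282, and not without any other single library. The part of other cells in these results was not tested.

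Single members of several signaling lists were lower, and each of these passed without library NGS-6282 as well. Over all genes tested without that library, 8.48% were lower and 21.1% higher, which stands beside each count given below. Dkk3, of a family of Wnt modulators, had 1.02, 1.05 and 1.01 RPKM in FC/FC libraries and 1.393, 1.397 and 1.403 RPKM in F/F libraries, with little spread in either group (-0.41, limma, adjusted p = 0.013). It was the only call among 35 Wnt pathway genes tested, of which 4 were lower and 1 higher without library NGS-6282. Eng, a coreceptor of TGFβ, had 0.859, 0.793 and 0.768 RPKM in FC/FC libraries and 1.02, 1.02 and 1.12 RPKM in F/F libraries (-0.35, limma, adjusted p = 0.042), and was the only call among 36 genes of the TGFβ and BMP pathways, of which 8 were lower and 5 higher without library NGS-6282. Cxcl17, a mucosal chemokine, had 0.743, 0.763 and 0.617 RPKM in FC/FC libraries and 1.13, 1.11 and 1.17 RPKM in F/F libraries (-0.62, limma, adjusted p = 0.023), the only call among 19 chemokines and cytokines, of which 4 were lower and 1 higher without library NGS-6282. Dnm1, a dynamin of endocytosis, had 1.73, 1.48 and 1.44 RPKM in FC/FC libraries and 2.12, 1.99 and 2.19 RPKM in F/F libraries (-0.42, limma, adjusted p = 0.045). With Crabp2 and Mrgprf, Dnm1 was 1 of 3 lower genes among 22 tested with lower mRNA in FC/FC cells on the microarrays, where no gene was higher and the median was -0.01. Over all genes tested 1.55% were lower. Without library NGS-6282, 8 of the 22 were lower and 1 higher with a median of -0.16, beside 8.48% and 21.1% of all genes. Without a library other than NGS-6282, none of these 4 genes passed except Cxcl17, in 1 of 5 cases.

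All 80 ribosomal protein genes had a log2 fold change above 0, with a median of 0.14, and none passed the test. Over all genes tested 7488 of 9986 were above 0, and 5800 after centring. After centring 77 of the 80 were above 0 with a median of 0.08, and after quantile normalization the median was 0.05. Without library NGS-6282, 48 of the 80 were higher and 0 lower, beside 21.1% of all genes tested. Of 65 tested replication-dependent histone genes 2 were higher and 0 lower, with a median of 0.17, beside 0.591% higher over all genes. Without library NGS-6282, 31 were higher and 0 lower, beside 21.1% and 8.48% of all genes tested. Hist1h1e, a linker histone, had 22.95, 23.1 and 23.6 RPKM in FC/FC libraries and 20.1, 19.7 and 19.02 RPKM in F/F libraries (0.24, limma, adjusted p = 0.037). Hist1h4i, a histone H4 gene with near-identical copies, had 15.7, 14.7 and 16.2 RPKM in FC/FC libraries and 12.3, 11.7 and 13.2 RPKM in F/F libraries (0.32, limma, adjusted p = 0.048). Both passed without library NGS-6282 and neither without any other library.

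Of the genes for subunits of H3K4 methyltransferase complexes 14 were tested and none passed, with a median of 0.09 and all 14 values above 0 (11 of 14 after centring). Values above 0 were found at 7488 of all 9986 genes tested, and at 5800 after centring. Without library NGS-6282, 2 were higher and 0 lower. Over all genes tested, 21.1% were higher and 8.48% lower without that library, and 0.591% and 1.55% with all libraries. These shares stand beside each list of this paragraph. Ash2l, a subunit shared by these complexes, had 2.04, 2.09 and 1.98 RPKM in FC/FC libraries and 1.87, 1.80 and 1.79 RPKM in F/F libraries (0.15, limma, adjusted p = 0.092, and 0.045 without library NGS-6282). Of the 6 H3K4 demethylase genes none had enough signal to be tested. Interferon-induced genes went both ways, with 1 lower (Ifitm6) and 2 higher (Ifi27 and Ifi27l2a) of 29 tested, and 2 lower and 3 higher without library NGS-6282. Ifi27 and Ifi27l2a overlap on opposite strands of chromosome 12, so that their reads cannot be told apart. Ifi27 had 4.15, 4.27 and 4.27 RPKM in FC/FC libraries and 3.46, 3.43 and 3.67 RPKM in F/F libraries (0.26, limma, adjusted p = 0.041, 0.011 without library NGS-6282 and 0.13 to 0.21 without another). Of 20 adipogenic, 7 myogenic and 15 skeletal genes tested none passed, and without library NGS-6282, 1 adipogenic and 3 skeletal genes were lower.

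The promoters of the 155 genes lower with all 6 libraries were poor in CpG. The median number of CpG in the 300 bases around the TSS was 7 for the 155 lower genes, 15 for the 59 higher genes and 21 for all genes tested with a sequence (9984). Fewer than 10 CpG were counted at 98 of the lower genes (63.2%), at 15 of the higher genes (25.4%) and at 1539 of all genes (15.4%). Of these 1539 genes 6.37% were lower and 0.975% higher, while of the 2935 genes with 10 to 19 CpG 0.7496% were lower and 0.7496% higher, and in the 2 richer classes 0.616% and 0.662% were lower. Without library NGS-6282, 286 of 847 lower genes (33.8%) had fewer than 10 CpG, so the share was smaller in that larger set. The median of the 847 was 18 CpG. Of the 2105 genes higher without that library 234 (11.1%) had fewer than 10 CpG. Aqp5, with 46 CpG, is an exception among the largest falls. The letters TGANTCA (N is any base; the motif reads the same on both strands), which hold the element of AP-1 factors, were in the promoters of 21 of the lower genes (13.5%), 1 of the higher genes (1.69%) and 465 of all genes (4.66%). At the genes lower without library NGS-6282 the share was 6.38% (54 of 847). A match of letters is not a bound site.

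Lower genes differed from the rest in the peaks they carried. A peak within 1 kb of the TSS was present in all 6 libraries at 91 of the 155 lower genes (58.7%), at 57 of the 59 higher genes (96.6%) and at 95.7% of all genes tested. At 44 of the lower genes (28.4%) and at 305 of all genes (3.05%) no library had such a peak. Where within these 44 genes the fall lay was not measured. The TSS is that of the longest transcript, so a peak at another start site would not be counted. A distal region that was lost lay within 50 kb of 37 of the lower genes (23.9%), 2 of the higher genes (3.39%) and 766 of all genes (7.67%). At the 847 genes lower without library NGS-6282, 83.8% had a promoter peak in all 6 libraries, 11.2% had none in any, and 16.5% had a lost distal region within 50 kb. The level and the peaks come from the same libraries, so these counts are not independent of the calls. The 155 lower genes lay in 153 separate loci. Their share ran from 0% of the genes tested on chromosomes 16 and X to 3.74% (23 of 615) on chromosome 10.

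H3K4me1 and H3K4me3 were read from other libraries of the same 2 groups at the genes called for H3K4me2. Over all genes tested for both H3K4me2 and H3K4me1, the log2 fold change of H3K4me1 was below 0 at 3103 of 6942 and above at 3839. For H3K4me3 it was below 0 at 3559 of 8474 genes and above at 4915. All 155 lower genes passed the filter on level for H3K4me1, and 151 of them had a log2 fold change below 0, with a median of -0.17, against 0.02 over all genes tested for both marks. At 124 of the 155 (80%) the 3 FC/FC libraries of H3K4me1 were all below the 3 F/F libraries, as was so at 14.3% of all genes. Of the higher genes 23 were tested for H3K4me1, all 23 had a value above 0, and 15 (65.2%) had FC/FC libraries all above the F/F libraries, against 14.2% of all genes. For H3K4me3 only 16 of the lower genes had enough signal, of which 15 were below 0, with a median of -0.19, and at 9 (56.3%) the FC/FC libraries were all below the F/F libraries, against 3.99% of all genes. Of 51 higher genes tested for H3K4me3, 39 were above 0 with a median of 0.06, and 10 (19.6%) had FC/FC libraries all above, against 3.47%. At genes called without library NGS-6282 these shares were smaller. For H3K4me1 they were 61.0% of 825 lower genes tested and 38.7% of 1115 higher genes, and for H3K4me3 20.8% of 346 lower genes (median -0.04) and 4.04% of 2052 higher genes. The labels do not say whether the marks were taken from the same chromatin, so that the marks may share the cultures.

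Crabp2 and Nupr1 had the largest falls of H3K4me3 among the named genes tested for it. At Crabp2 the mean H3K4me3 was 0.993 RPKM in FC/FC cells and 2.11 RPKM in F/F cells (log2 fold change -1.02), and at Nupr1 it was 2.30 RPKM in FC/FC cells and 4.45 RPKM in F/F cells (-0.94). At S100b H3K4me1 averaged 4.08 RPKM in FC/FC cells and 5.497 RPKM in F/F cells (-0.42), and at Rgs4 H3K4me3 averaged 2.86 RPKM in FC/FC cells and 1.82 RPKM in F/F cells (0.61). At each of these 4 the FC/FC and F/F libraries of that mark did not overlap, but none passed the test for that mark (limma, adjusted p = 0.093 for Crabp2, 0.48 for Nupr1, 0.064 for S100b and 0.85 for Rgs4). Krtap2-4 differed, with 2.73 RPKM of H3K4me1 in FC/FC cells and 2.80 RPKM in F/F cells, and overlapping libraries.

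**Figure D4:**
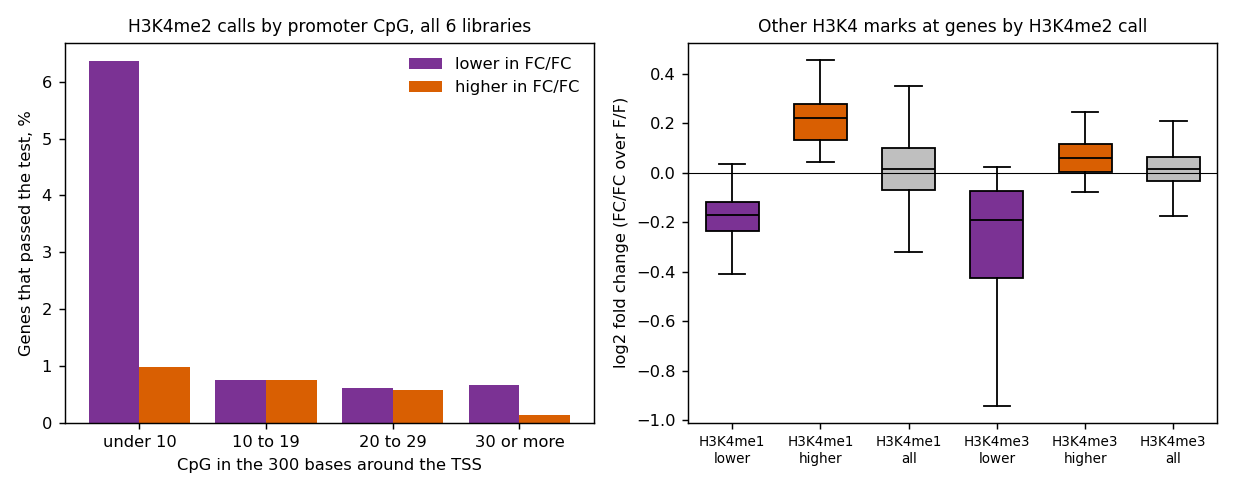
Left, the share of genes (y axis, %) whose H3K4me2 was lower (purple) or higher (orange) in FC/FC cells with all 6 libraries, by the number of CpG in the 300 bases around the TSS (x axis). Of genes with fewer than 10 CpG 6.37% were lower. Right, the log2 fold change (FC/FC over F/F, y axis) of H3K4me1 and H3K4me3 at genes called lower, called higher and at all genes tested for both marks, as boxes of the quartiles with the median as a line and whiskers to the last value within 1.5 box lengths; the H3K4me1 medians are -0.17, 0.22 and 0.02.

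Peaks gave a second view of the mark. The number of peaks was 58585, 58095 and 56112 in FC/FC libraries NGS-6282, NGS-6290 and NGS-6298, and 66779, 62100 and 70437 in F/F libraries NGS-6278, NGS-6286 and NGS-6294. Every FC/FC library had fewer peaks than every F/F library, with a mean difference of -8841 peaks (-13.3%, exact two-sided permutation test, p = 0.1, which is the smallest this design allows). Without library NGS-6282 the difference was -9335 peaks (exact permutation p = 0.2, again the smallest possible). The difference lay mostly in distal peaks. Peaks over 5 kb from every TSS numbered 38669, 38969 and 37581 in FC/FC libraries and 46011, 42480 and 49566 in F/F libraries, a difference of -16.5% (exact permutation p = 0.1). Peaks within 1 kb of a TSS numbered 14915, 14988 and 14578 in FC/FC libraries and 15313, 15005 and 15228 in F/F libraries, a difference of -2.34% (exact permutation p = 0.1), so that their share of all peaks was 25.5%, 25.8% and 26.0% in FC/FC libraries and 22.9%, 24.2% and 21.6% in F/F libraries. With an equal number of peaks in each library, the difference in H3K4me2 peak share at promoters was 0.0166 percentage points (exact permutation p = 1), against 2.84 with all peaks.

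The genome covered by peaks did not differ beyond its spread. It was 104, 125 and 128 Mb in FC/FC libraries and 118, 125 and 133 Mb in F/F libraries (exact permutation p = 0.6), and without library NGS-6282 the mean difference was 0.712 Mb in the other direction (exact permutation p = 1). Library NGS-6282 had the narrowest peaks of all, with a median width of 1317 bp, against 1595 and 1710 bp in FC/FC libraries NGS-6290 and NGS-6298 and 1330 to 1514 bp in F/F libraries. It was also the library with the fewest reads. Library NGS-6290, with the most reads within transcripts, had fewer peaks than each F/F library. The part of depth in the number of peaks was not tested.

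**Figure D5:**
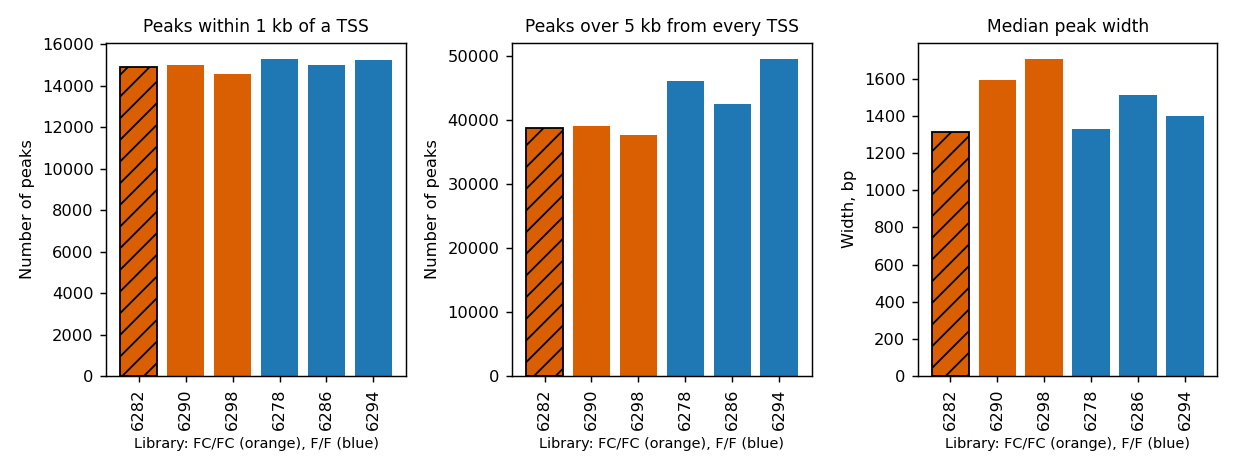
H3K4me2 peaks in each library (x axis; orange FC/FC, hatched for library NGS-6282; blue F/F): the number within 1 kb of a TSS (left), the number over 5 kb from every TSS (middle) and the median peak width in bp (right). Distal peaks number 37581 to 38969 in FC/FC libraries and 42480 to 49566 in F/F libraries, while promoter peaks differ little.

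Merged over the 6 libraries, 1362 of 54059 distal regions (2.52%) were lost in FC/FC cells and 54 (0.0999%) were gained. At promoters 31 of 14624 regions (0.212%) were lost and 14 (0.0957%) gained. Without library NGS-6282 the counts were 1979 lost and 226 gained distal regions, and 59 lost and 26 gained promoter regions. These counts rest on how many peaks were called. With an equal number of peaks taken from each library, those of the highest score, 382 distal regions were lost and 367 gained, and 14 promoter regions were lost and 64 gained. Of 36300 distal regions with a peak in all F/F libraries, 13.3% had none in library NGS-6282. Of the 1978 of these regions with no peak in libraries NGS-6290 and NGS-6298, 68.9% had none in library NGS-6282 (1362). On the gained side, 54.3% of the 1789 distal regions without an F/F peak had none in library NGS-6282, and of the 226 of these with a peak in both NGS-6290 and NGS-6298, 76.1% had none.

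Lost and gained distal regions were both small. The median width was 1078 bp for lost and 1012.5 bp for gained regions, against 1668 bp for all distal regions with a peak in the 3 F/F libraries. The median F/F score of lost regions was 94.2, against 390 for all such F/F regions. TGANTCA was in the central 300 bases of 26.4% of lost regions, 20.4% of gained regions and 23.5% of regions with a peak in all F/F libraries. GGAATG, on either strand, which holds the core of the TEAD motif, was in 31.9% of lost, 14.8% of gained and 26.0% of all such F/F regions, and TGTGGT, the core of the RUNX motif, in 28.4%, 18.5% and 24.9%. Among regions of 929 to 1264 bp, the interquartile range of lost widths, the shares of TGANTCA were 29.6% of lost regions and 25.1% of those with a peak in all F/F libraries.

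The lost distal regions with the highest scores lay between genes or in an intron. The highest (chr5:35537040-35538980), between genes and 11414 bp from the TSS of Cpz, scored 409, 194 and 904 in F/F libraries NGS-6278, NGS-6286 and NGS-6294 and had no peak in an FC/FC library. The others lay near Krt19, in an intron of Baiap2, near Wasf2 and near Ripk4. Of the gained distal regions, that with the highest mean score was chr7:53367193-53368288, between genes. It scored 151, 157 and 99.8 in FC/FC libraries NGS-6282, NGS-6290 and NGS-6298 and had no peak in an F/F library. The central 300 bases of the lost regions near Krt19 (chr11:100155693-100155992) and near Ly6f (chr15:75216174-75216473) are printed on the plus strand of mm10, with TGANTCA in capitals where present. They were chosen because the level at the gene named was also lower in FC/FC libraries. Krt19 was too low to be tested, and Ly6f kept 3621 to 4008 bp of peaks within 5 kb of its TSS in FC/FC libraries. The region near Ly6f resembles the Ly6f promoter printed above over long stretches, so its peaks and the level of Ly6f may share reads.
Lost region near Krt19: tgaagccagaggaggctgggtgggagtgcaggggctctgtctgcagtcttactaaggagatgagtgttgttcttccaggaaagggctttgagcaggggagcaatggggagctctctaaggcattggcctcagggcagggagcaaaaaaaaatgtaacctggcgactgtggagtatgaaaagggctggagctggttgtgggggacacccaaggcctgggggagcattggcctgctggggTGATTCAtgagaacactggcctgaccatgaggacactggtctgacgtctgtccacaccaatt
Lost region near Ly6f: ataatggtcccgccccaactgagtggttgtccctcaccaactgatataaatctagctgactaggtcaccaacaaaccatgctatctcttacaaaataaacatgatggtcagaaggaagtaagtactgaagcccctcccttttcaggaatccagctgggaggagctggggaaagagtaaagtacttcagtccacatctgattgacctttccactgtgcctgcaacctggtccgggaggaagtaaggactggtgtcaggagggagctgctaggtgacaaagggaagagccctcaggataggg

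Krt19, a keratin of simple epithelia, lost its promoter region as well as the distal region 9129 bp away. Its promoter region (chr11:100145622-100146943, over an exon of Krt19) had no peak in an FC/FC library and scored 265, 228 and 309 in F/F libraries. The level of Krt19 was too low to be tested, with 0.197, 0.252 and 0.185 RPKM in FC/FC libraries and 0.405, 0.493 and 0.442 RPKM in F/F libraries. The other lost promoter regions with the highest scores were those of Scml4, Mir6931, Map3k7cl and Lctl. The gained ones were those of Grik1, a glutamate receptor, Pcsk5, Col13a1, Ghsr, the ghrelin receptor, and Lingo2. None of the 14 genes beside a gained promoter region had enough signal to be tested. Of the 31 beside a lost one 9 were tested, and Krtap2-4 and Cdsn were called lower. Cdsn, the corneodesmosin of skin, is named here because of its values, seen beforehand, and had 1.02, 1.06 and 1.03 RPKM in FC/FC libraries and 1.62, 1.66 and 1.72 RPKM in F/F libraries (log2 fold change -0.64, limma, adjusted p = 0.0032, and 0.0013 without library NGS-6282). At Scml4, which encodes a protein related to Polycomb factors, the gene level hardly moved (-0.05) although the peak was lost.

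The breadth of the mark around the TSS, counted as the bases under peaks within 5 kb, was compared at 15264 genes with such a peak in all 6 libraries. No gene passed (0%, limma), although 638 were wider and 332 narrower at an unadjusted p under 0.05, and the smallest adjusted p was 0.062. With breadths centred on the library median 6 genes were wider and 70 narrower. The median breadth was 3523, 3958 and 4032 bp in FC/FC libraries NGS-6282, NGS-6290 and NGS-6298, and 3560, 3768 and 3811 bp in F/F libraries NGS-6278, NGS-6286 and NGS-6294. Among the 5 narrower genes with the smallest p was Ascl3, a transcription factor of salivary gland cells, with 1783, 1626 and 1964 bp in FC/FC libraries and 3632, 3613 and 3923 bp in F/F libraries (limma, adjusted p = 0.062). Krt19 was another, with 1264, 1446 and 1606 bp in FC/FC libraries and 2565, 2779 and 2835 bp in F/F libraries (limma, adjusted p = 0.13). In the other direction Ntrk3, the neurotrophin-3 receptor, had 2238, 2038 and 2238 bp in FC/FC libraries and 1151, 1258 and 1124 bp in F/F libraries (limma, adjusted p = 0.074). None of these 3 overlapped between the groups, and none passed without library NGS-6282. With breadths centred on the library median all 3 passed (limma, adjusted p = 0.0082 for Ascl3, 0.0064 for Krt19 and 0.020 for Ntrk3). The share of all genes without overlap in breadth was not counted.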

How the data were processed

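Reads were base-called with CASAVA 1.4 and aligned to mm10 with BWA 0.7.10, per the labels. The authors deposited RPKM over RefSeq transcripts and peaks called with MACS 1.4.2, each with a score, per library against an H3 library. Transcripts under 250 bp were left out and the longest per symbol was kept (23043 genes). Levels were tested with limma 3.58.1 in R 4.3.3 (mean-variance trend, pseudocount 0.1, Benjamini-Hochberg adjustment over 9986 genes, threshold 0.05), a procedure tested on simulated data. Peak summaries were compared by exact permutation tests. Promoter bases came from the mm10 genome. Other steps used Python 3.11.15 with pandas 2.3.3, numpy 2.4.6, scipy 1.17.1 and matplotlib 3.10.9.

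Genes named were the 14 lower and 10 higher with the largest change among called genes without overlap, called members of the gene lists, the listed member with the smallest p in each direction, Kmt2d and its complex partners, and the 5 regions of each kind with the highest scores or smallest p. The lists and members were chosen with earlier results of these data known. Alternatives were other pseudocounts, no filter, the shortest transcript, centring, quantile normalization, no trend, limma-voom on recovered reads, other peak scores, numbers, overlaps and windows, and leaving out each library. H3K4me1 and H3K4me3 entered only as other readouts.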

Additional observations from a re-analysis of the deposited data

How the results depend on the processing

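Pseudocounts of 0.01 and 1, the shortest transcript and moderation without a trend left both gene counts within 1.5 times. Higher genes numbered 28 with quantile normalization or centring and 107 with limma-voom. Lower genes numbered 384 without a filter, 319 with quantile normalization, 406 with centring and 262 with limma-voom. Leaving out 1 library gave 0 to 2105 higher and 0 to 847 lower genes, the highest counts being those without library NGS-6282. None of the 42 named genes with a call changed direction under any of these. All 42 remained called without library NGS-6282, and 0 to 9 without another library. Of the 42, 7 no longer passed with limma-voom, 7 with quantile normalization, 4 with centring and 4 without a filter.

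Promoter regions lost numbered 67 with a promoter of 2 kb, 14 with the same number of peaks and 33 to 69 without 1 library. Those gained numbered 24 with an overlap of 50%, 64 with the same number of peaks and 18 to 46 without 1 library. Distal regions lost numbered 382 with the same number of peaks and 1694 to 3170 without 1 library, and those gained 31 at a score of at least 100, 367 with the same number of peaks and 91 to 226 without 1 library. The difference in H3K4me2 peak length was 0.419 Mb with the same number of peaks, 0.712 Mb without library NGS-6282, and -10.95 to 0.712 Mb without 1 library. That in H3K4me2 peak share at promoters was 0.0166 percentage points with the same number of peaks. Peak number cannot be compared under the same number of peaks. Promoter breadth gave 6 wider and 70 narrower genes after centring, 1 wider gene with a 2 kb window and 0 to 3 narrower genes without 1 library. The causes were not tested. No paired analysis was run, because the labels pair no FC/FC library with an F/F library. Whether the order of the library numbers reflects pairs or batches was not tested.

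With 3 libraries a group, exact tests of peak summaries cannot go below 0.1, and reads at similar gene copies limit the Ly6, keratin-associated and histone values.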
